A study of Mus musculus with 24 samples.

Results

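The 35 genes described here are interferon-stimulated genes, selected by symbol from the 24537 genes of a raw count table and read in all 24 libraries. The libraries were made from the extensor digitorum longus (EDL), a mostly fast-twitch muscle, and the soleus (SOL), a mostly slow-twitch muscle, of 2-month-old mice. Acta1-Cre+/4Fhet mice (Cre+) carried 1 copy each of a Dox-inducible cassette of Oct4, Sox2, Klf4 and c-Myc (OSKM, or 4F) and of the rtTA activator behind a floxed stop, together with the Acta1-Cre driver, which recombines the stop in skeletal myofibers. Acta1-Cre-/4Fhet mice (Cre-) carried the same cassettes without the driver and drank the same water with Dox (1 mg/ml). Each of the 12 groups of muscle, genotype and length of Dox treatment, which was 2.5 days, 5.5 days or 8.5 days, had 2 libraries, called replicate 1 and replicate 2. They are described as independent biological samples. The published work treated libraries that lacked raised OSKM as outliers and excluded them, whereas all libraries of the table were read here. The labels do not state that EDL and SOL libraries of 1 number came from 1 mouse.

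Interferons are secreted in response to viral or bacterial nucleic acids, or by activated T and NK cells in the case of interferon-γ. Type I interferons act through the JAK1 and TYK2 kinases and a complex with STAT2 and IRF9, which binds interferon-stimulated response elements, whereas interferon-γ acts through JAK1 and JAK2 and on gamma-activated sites. Interferon-stimulated genes encode antiviral proteins, sensors, GTPases that attack the vacuoles of intracellular microbes, and the machinery that loads peptides onto MHC class I. The 35 members were sorted into 6 roles. They comprise 4 signalling and transcription factors (Stat2, Irf1, Irf7, Irf9), 4 nucleic acid sensors (Ifih1, Ddx58, Dhx58, Zbp1) and 13 antiviral effectors (Ifit1, Ifit2, Ifit3, Ifi44, Oas2, Oasl1, Oasl2, Mx1, Mx2, Rsad2, Rtp4, Bst2, Xaf1). There were also 7 genes for ISG15 with ubiquitin and ADP-ribose enzymes (Isg15, Usp18, Trim25, Trim30a, Dtx3l, Parp9, Parp14), 5 interferon-inducible GTPases (Gbp2, Gbp3, Gbp7, Igtp, Irgm1) and 2 antigen presentation genes (Tap1, B2m).

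Promoter sequences from RefSeq (GRCm38.p6, 250 bases before to 50 after each start) were found for 26 of the 35 members, 31 promoters in all. None was listed for Dhx58, Mx1, Mx2, Oas2, Parp14, Parp9, Rtp4, Usp18 or Zbp1. A core of the interferon-stimulated response element, GAAA, any 2 bases and GAAA again, was found, in either orientation, in 15 of the 26 members (57.7%, exact 95% interval 36.9 to 76.6%), against 3.99% of the 27025 genes in the table. TTCNNNGAA, the gamma-activated site, which reads alike on both strands, was found in 5 members (19.2%, exact 95% interval 6.55 to 39.4%), against 9.55% of genes. All 5 GTPases had the first motif, as did 4 of 9 antiviral effectors and 1 of 4 signalling and transcription factors with a promoter. Both motifs were found in Bst2, Gbp7 and Igtp, 11.5% of the 26 members against 0.614% of genes. Only in Bst2 did a match of the first motif overlap a match of the second. A match is a description of these letters in the window and not a measured binding site. Parts of the windows of 6 members are shown because these genes carry the 2 patterns of level described below, the GTPases the first and Isg15 and Ifit1 the second. The motif matches are in capitals, and each sequence reads 5′ to 3′ along the gene.
Igtp (chr11:58199436-58199555, + strand): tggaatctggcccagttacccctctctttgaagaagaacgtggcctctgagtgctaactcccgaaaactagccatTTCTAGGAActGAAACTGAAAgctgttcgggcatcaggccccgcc
Irgm1 (chr11:48871426-48871455, - strand): ttcaaGAAATAGAAACCGAAActgattctc
Gbp7 (chr3:142530216-142530335, + strand): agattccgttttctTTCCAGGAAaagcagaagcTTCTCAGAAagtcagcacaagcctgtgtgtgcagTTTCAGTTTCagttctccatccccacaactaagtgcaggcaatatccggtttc
Gbp2 (chr3:142620594-142620623, + strand): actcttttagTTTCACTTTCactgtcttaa
Isg15 (chr4:156200819-156200938, - strand): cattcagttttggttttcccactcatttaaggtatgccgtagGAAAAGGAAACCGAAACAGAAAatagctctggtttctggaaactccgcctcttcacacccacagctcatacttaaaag
Ifit1 (chr19:34640769-34640868, + strand): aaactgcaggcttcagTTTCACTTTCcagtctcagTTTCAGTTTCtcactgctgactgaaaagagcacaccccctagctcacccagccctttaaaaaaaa
In Igtp the gamma-activated site lay at -45 to -37 and the response element at -34 to -25 from the RefSeq start. In Isg15, 3 overlapping matches of the response element spanned -78 to -57, and Ifit1 had 2 separate ones.

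Library depth ranged from 36088781 to 54679082 counted reads. The summed level of 9 fast fibre genes was 67300 to 111900 FPKM (reads scaled by exon length and by the counted reads of the library) in EDL and 26480 to 46400 FPKM in SOL, and that of 8 slow fibre genes was 340 to 1865 FPKM in EDL and 32680 to 51670 FPKM in SOL, so that the fibre markers separated the muscles as labelled. Pou5f1 (Oct4) reached 17.5 to 76.2 FPKM in the Cre+ EDL libraries of 2.5 and 8.5 days and 5.02 to 12.2 FPKM in the corresponding SOL libraries, against at most 0.0896 FPKM in any Cre- library. After 5.5 days it was at 1.02 and 27.7 FPKM in Cre+ EDL and 0.0785 and 0.387 FPKM in Cre+ SOL, so that both SOL libraries and 1 EDL library of 5.5 days held little of it. Among sex-linked transcripts, read after seeing the data, Ddx3y was at 9.74 to 16.1 FPKM and Xist at no more than 0.0585 FPKM in the 8 libraries of 2.5 days, whereas Xist was at 6.36 to 20.6 FPKM and Ddx3y at no more than 0.0601 FPKM in the 16 libraries of 5.5 and 8.5 days. This held in both genotypes, so that 2.5 days and male sex cannot be told apart.

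All 35 members were detected in all 24 libraries, and all passed the filter on low counts. Mean levels ran from 0.146 FPKM for Mx1 to 163 FPKM for B2m. The lowest count was 3, for Mx1 in Cre- SOL at 8.5 days, replicate 2. Whole muscle was sequenced, so that fewer cells of a type and less RNA per cell cannot be told apart.

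The highest levels were found in single libraries, 1 of them a control. The SOL library of Cre- mice after 5.5 days, replicate 1, was the highest of all 24 for 15 members, and the SOL library of Cre+ mice after 8.5 days, replicate 1, for 18. The remaining 2 were Trim25 (Cre+ SOL, 2.5 days, replicate 2) and Zbp1 (Cre+ EDL, 8.5 days, replicate 1). To put genes of different level on 1 scale, the log2(CPM + 0.5) of each member was set against its mean over the 12 libraries of the same muscle, and the median over members was taken per library. This median was 0.98 in the Cre- SOL library of 5.5 days, replicate 1, and 1.15 in the Cre+ SOL library of 8.5 days, replicate 1, and lay between -0.48 and 0.17 in the other SOL libraries. In EDL it ran from -0.67 (Cre- 5.5 days, replicate 2) to 0.61 (Cre+ 8.5 days, replicate 1). All 35 members were above their mean in both Cre+ libraries of 8.5 days, replicate 1, and also in the Cre+ EDL library of 2.5 days, replicate 1, whereas 0 were above it in the EDL libraries of 5.5 days, replicate 2, of either genotype. These counts rest on total counts, and the share of all genes was not computed. With TMM-scaled library sizes the median in Cre+ EDL of 2.5 days, replicate 1, was 0.23 instead of 0.40. It was 0.24 instead of 0.19 in Cre- EDL of 2.5 days, replicate 1. In Cre+ EDL of 8.5 days it was 0.41 and -0.04 in replicates 1 and 2, instead of 0.61 and 0.06. The high SOL libraries were then at 1.08 (Cre- 5.5 days) and 1.05 (Cre+ 8.5 days).

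**Figure D1:**
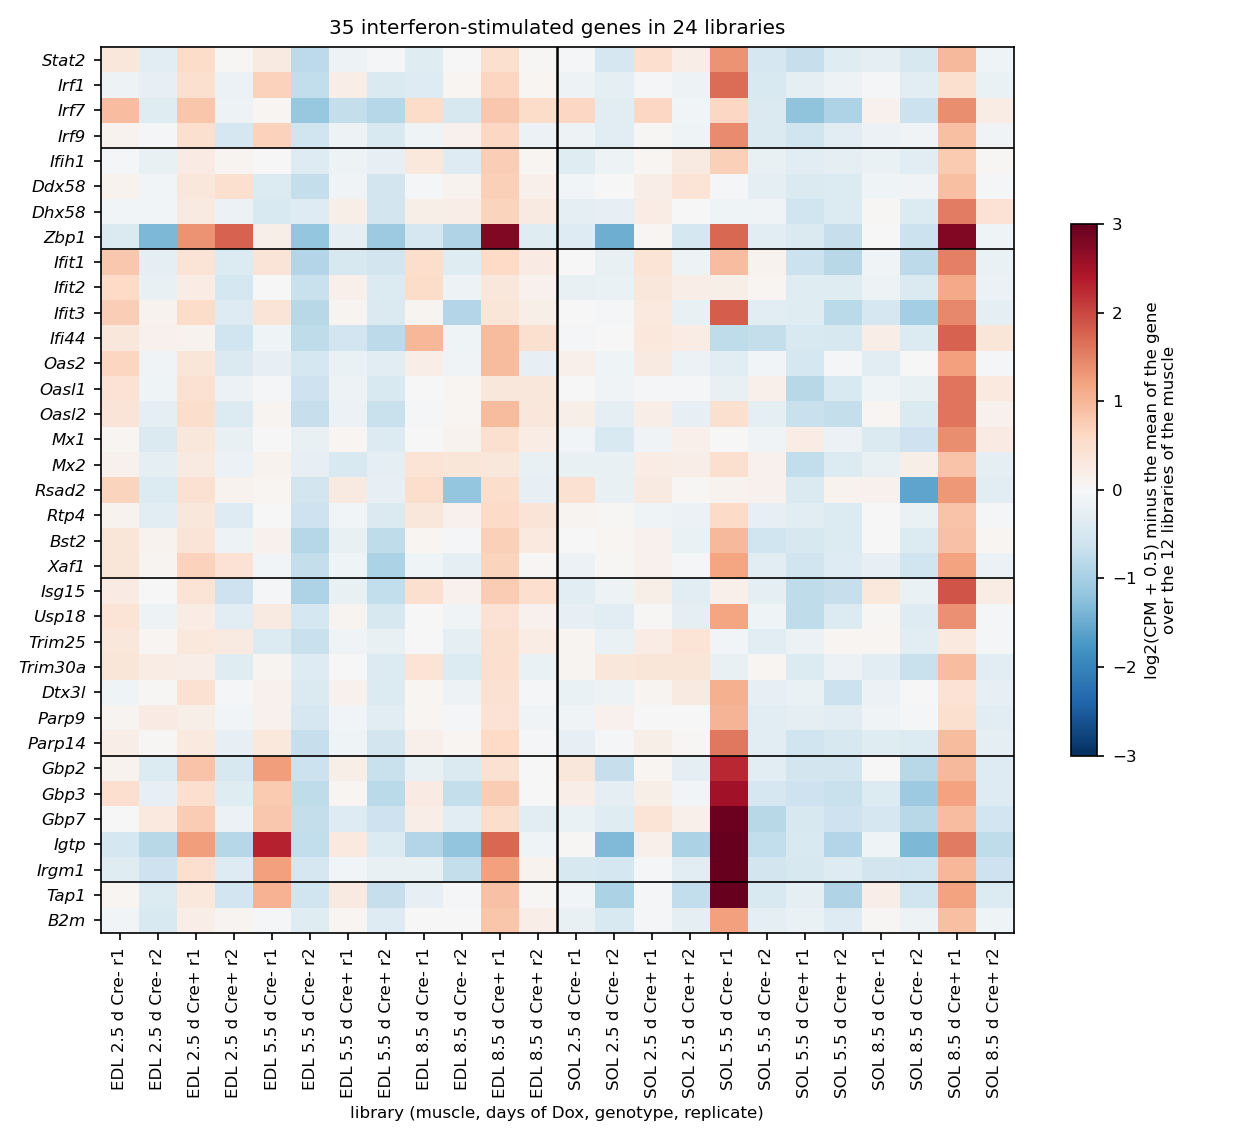
Level of each of the 35 members (rows, grouped by role between the horizontal lines) in each of the 24 libraries (columns, r1 and r2 being replicates 1 and 2), as log2(CPM + 0.5) minus the mean of the gene over the 12 libraries of the muscle, with the colour scale ending at 3 in either direction. The 2 darkest columns are SOL Cre- 5.5 days replicate 1 (median 0.98) and SOL Cre+ 8.5 days replicate 1 (median 1.15), and the first is darkest in the GTPases and Tap1.

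The GTPases carried the largest single difference. Igtp encodes an immunity-related GTPase that associates with pathogen vacuoles. In the Cre- SOL libraries, replicate 1 named first throughout, Igtp was at 10.8 and 4.01 FPKM at 2.5 days, 305 and 6.18 at 5.5 days and 9.57 and 3.99 at 8.5 days and in the Cre+ SOL libraries at 11.6 and 5.34 FPKM at 2.5 days, 7.61 and 5.54 at 5.5 days and 31.3 and 6.02 at 8.5 days. Its EDL levels were 7.54 and 6.01 FPKM at 2.5 days, 54.8 and 6.41 at 5.5 days and 5.86 and 4.69 at 8.5 days in Cre- mice and 26.3 and 5.90 FPKM at 2.5 days, 13.4 and 8.13 at 5.5 days and 36.5 and 9.90 at 8.5 days in Cre+ mice. One control library of the 24 thus stood 49.4-fold above its own replicate, and the control EDL library of the same number and day was the next highest at 54.8 FPKM. The Cre+ libraries of replicate 1 at 8.5 days followed, at 36.5 FPKM in EDL and 31.3 FPKM in SOL, and the Cre- and Cre+ values overlapped except in EDL at 8.5 days.

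Irgm1, a regulatory member of the same GTPase family, followed the same libraries. In SOL it was at 11.1 and 10.8 FPKM at 2.5 days, 191 and 10.7 at 5.5 days and 10.6 and 10.4 at 8.5 days in Cre- mice and at 15.3 and 12.3 FPKM at 2.5 days, 11.2 and 11.9 at 5.5 days and 31.7 and 10.1 at 8.5 days in Cre+ mice. In EDL it was at 9.70 and 8.16 FPKM at 2.5 days, 29.7 and 8.76 at 5.5 days and 10.8 and 7.63 at 8.5 days in Cre- mice and 17.9 and 9.64 FPKM at 2.5 days, 11.9 and 10.8 at 5.5 days and 29.9 and 13.6 at 8.5 days in Cre+ mice. Apart from replicate 1 of the Cre- group at 5.5 days and of the Cre+ group at 8.5 days, every SOL value lay between 10.1 and 15.3 FPKM. Gbp7 is a guanylate-binding protein that acts on vacuoles of pathogens. Its SOL levels were 2.06 and 1.81 FPKM at 2.5 days, 18.7 and 1.29 at 5.5 days and 1.65 and 1.28 at 8.5 days in Cre- mice and 3.15 and 2.62 FPKM at 2.5 days, 1.66 and 1.51 at 5.5 days and 4.58 and 1.56 at 8.5 days in Cre+ mice, and its EDL levels 1.85 and 2.28 FPKM at 2.5 days, 3.33 and 1.09 at 5.5 days and 2.14 and 1.46 at 8.5 days in Cre- mice and 3.21 and 1.63 FPKM at 2.5 days, 1.40 and 1.17 at 5.5 days and 2.71 and 1.46 at 8.5 days in Cre+ mice. Igtp, Irgm1 and Gbp7 were the 3 members with the largest difference between the libraries of 1 Cre- group. The other 2 GTPases, Gbp2 and Gbp3, reached 37.2 and 33.1 FPKM in that control library, against 5.90 and 3.91 FPKM in its replicate.

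The antigen presentation genes were Tap1 and B2m. Tap1 encodes a subunit of the peptide transporter. In SOL Tap1 was at 3.33 and 1.75 FPKM at 2.5 days, 30.4 and 2.53 at 5.5 days and 4.10 and 2.25 at 8.5 days in Cre- mice and 3.35 and 2.05 FPKM at 2.5 days, 2.87 and 1.80 at 5.5 days and 8.41 and 2.60 at 8.5 days in Cre+ mice, and in EDL at 2.24 and 1.55 FPKM at 2.5 days, 4.55 and 1.34 at 5.5 days and 1.77 and 2.03 at 8.5 days in Cre- mice and 2.68 and 1.38 FPKM at 2.5 days, 2.60 and 1.26 at 5.5 days and 4.03 and 2.17 at 8.5 days in Cre+ mice. B2m, the light chain of MHC class I and the most abundant member, was at 162 and 138 FPKM at 2.5 days, 447 and 157 at 5.5 days and 193 and 169.5 at 8.5 days in Cre- SOL and 182 and 155 FPKM at 2.5 days, 165 and 144 at 5.5 days and 353 and 174 at 8.5 days in Cre+ SOL. Its EDL levels were 113 and 87.1 FPKM at 2.5 days, 117 and 93.1 at 5.5 days and 119 and 119 at 8.5 days in Cre- mice and 138 and 127 FPKM at 2.5 days, 125 and 92.1 at 5.5 days and 213 and 138 at 8.5 days in Cre+ mice. In both genes the Cre- SOL library of 5.5 days, replicate 1, was highest and the Cre+ SOL library of 8.5 days, replicate 1, second. The B2m row overlaps Patl2 on the other strand, and strand-aware counting is not stated in the sources used here.

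Among the transcription factors, Irf1 and Irf7 differed in where they peaked. Irf1, a factor induced by interferon-γ, was at 9.62 and 8.73 FPKM at 2.5 days, 35.2 and 7.78 at 5.5 days and 10.4 and 8.44 at 8.5 days in Cre- SOL and 10.3 and 9.66 FPKM at 2.5 days, 8.83 and 9.67 at 5.5 days and 15.1 and 9.44 at 8.5 days in Cre+ SOL. In EDL it was at 7.01 and 6.62 FPKM at 2.5 days, 12.8 and 4.64 at 5.5 days and 5.98 and 8.17 at 8.5 days in Cre- mice and 10.9 and 6.87 FPKM at 2.5 days, 9.08 and 5.77 at 5.5 days and 12.3 and 8.11 at 8.5 days in Cre+ mice. Irf1 peaked in the control SOL library of 5.5 days. Irf7, the factor that amplifies type I interferon production, was at 11.7 and 5.92 FPKM at 2.5 days, 11.6 and 5.48 at 5.5 days and 8.14 and 4.65 at 8.5 days in Cre- SOL and 11.6 and 7.05 FPKM at 2.5 days, 3.09 and 3.83 at 5.5 days and 20.1 and 8.79 at 8.5 days in Cre+ SOL. Its EDL levels were 9.10 and 3.52 FPKM at 2.5 days, 4.83 and 1.96 at 5.5 days and 6.90 and 3.25 at 8.5 days in Cre- mice and 8.43 and 4.15 FPKM at 2.5 days, 2.72 and 2.45 at 5.5 days and 8.33 and 6.97 at 8.5 days in Cre+ mice. Irf7 peaked in the Cre+ SOL library of 8.5 days, replicate 1, and was higher in replicate 1 in 11 of the 12 groups. Irf9 and Stat2, which act together in type I interferon signalling, peaked with Irf1, at 19.6 and 11.9 FPKM.

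Nucleic acid sensors were low. Ddx58 (RIG-I), which binds viral RNA, was at 1.95 and 2.10 FPKM at 2.5 days, 2.03 and 1.70 at 5.5 days and 1.91 and 1.92 at 8.5 days in Cre- SOL and 2.41 and 2.81 FPKM at 2.5 days, 1.52 and 1.53 at 5.5 days and 4.00 and 2.02 at 8.5 days in Cre+ SOL. In EDL it was at 1.64 and 1.45 FPKM at 2.5 days, 1.13 and 0.889 at 5.5 days and 1.45 and 1.66 at 8.5 days in Cre- mice and 1.95 and 2.16 FPKM at 2.5 days, 1.42 and 1.01 at 5.5 days and 2.58 and 1.71 at 8.5 days in Cre+ mice. Ifih1 (MDA5), a second RNA sensor, was at 0.940 and 1.11 FPKM at 2.5 days, 2.08 and 1.05 at 5.5 days and 1.06 and 0.966 at 8.5 days in Cre- SOL and 1.28 and 1.51 FPKM at 2.5 days, 0.961 and 1.02 at 5.5 days and 2.21 and 1.26 at 8.5 days in Cre+ SOL, with EDL levels of 1.02 and 0.900 FPKM at 2.5 days, 1.08 and 0.791 at 5.5 days and 1.34 and 0.789 at 8.5 days in Cre- mice and 1.28 and 1.13 FPKM at 2.5 days, 0.943 and 0.884 at 5.5 days and 1.85 and 1.11 at 8.5 days in Cre+ mice. Both had their highest value in the Cre+ SOL library of 8.5 days, replicate 1, and neither passed 4.01 FPKM in any library.

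Bst2 (tetherin), which holds budding virions at the cell surface, was the most abundant antiviral effector. It was at 20.6 and 21.3 FPKM at 2.5 days, 40.9 and 13.3 at 5.5 days and 20.3 and 15.4 at 8.5 days in Cre- SOL and 22.5 and 17.9 FPKM at 2.5 days, 14.4 and 15.2 at 5.5 days and 38.0 and 21.3 at 8.5 days in Cre+ SOL. In EDL it was at 22.8 and 18.9 FPKM at 2.5 days, 19.3 and 9.39 at 5.5 days and 18.4 and 16.8 at 8.5 days in Cre- mice and 23.0 and 15.7 FPKM at 2.5 days, 14.9 and 10.02 at 5.5 days and 29.4 and 21.5 at 8.5 days in Cre+ mice. Ifit3, a protein of the complex that binds uncapped viral RNA, was at 5.57 and 5.37 FPKM at 2.5 days, 20.2 and 4.36 at 5.5 days and 3.85 and 2.60 at 8.5 days in Cre- SOL and 6.87 and 4.73 FPKM at 2.5 days, 4.27 and 3.06 at 5.5 days and 15.6 and 4.44 at 8.5 days in Cre+ SOL, with EDL levels of 5.85 and 3.70 FPKM at 2.5 days, 4.55 and 1.80 at 5.5 days and 3.60 and 1.73 at 8.5 days in Cre- mice and 5.13 and 2.55 FPKM at 2.5 days, 3.63 and 2.46 at 5.5 days and 4.42 and 3.90 at 8.5 days in Cre+ mice. Both peaked in the control SOL library of 5.5 days, replicate 1, with the Cre+ SOL library of 8.5 days, replicate 1, second. Ifit3 has a near-identical copy, Ifit3b, and only uniquely aligned reads were counted. The other 11 effectors, Mx1, Mx2, Rsad2, Rtp4, Xaf1, Ifi44, Ifit1, Ifit2, Oas2, Oasl1 and Oasl2, had means of 0.146 to 3.74 FPKM, and all 11 peaked in the Cre+ SOL library of 8.5 days, replicate 1.

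Trim25, the ubiquitin ligase that activates RIG-I, had the smallest ratio of highest to lowest library of the 35 members. It was at 5.52 and 4.59 FPKM at 2.5 days, 4.99 and 4.14 at 5.5 days and 5.43 and 4.19 at 8.5 days in Cre- SOL and 6.12 and 7.03 FPKM at 2.5 days, 4.63 and 5.48 at 5.5 days and 6.50 and 5.12 at 8.5 days in Cre+ SOL, with EDL levels of 6.17 and 5.05 FPKM at 2.5 days, 3.67 and 3.02 at 5.5 days and 4.92 and 4.04 at 8.5 days in Cre- mice and 6.08 and 5.85 FPKM at 2.5 days, 4.54 and 4.20 at 5.5 days and 6.81 and 5.68 at 8.5 days in Cre+ mice. Neither high SOL library stood out in Trim25. Parp9, an ADP-ribosyltransferase that works with the ubiquitin ligase DTX3L, was at 5.22 and 6.18 FPKM at 2.5 days, 11.7 and 4.41 at 5.5 days and 5.20 and 5.38 at 8.5 days in Cre- SOL and 5.61 and 5.61 FPKM at 2.5 days, 4.59 and 4.48 at 5.5 days and 7.98 and 4.42 at 8.5 days in Cre+ SOL. In EDL it was at 3.46 and 3.88 FPKM at 2.5 days, 3.60 and 2.25 at 5.5 days and 3.42 and 3.14 at 8.5 days in Cre- mice and 3.69 and 3.06 FPKM at 2.5 days, 3.08 and 2.56 at 5.5 days and 4.43 and 3.0 at 8.5 days in Cre+ mice. Parp9 was highest in the control SOL library of 5.5 days, replicate 1. Isg15, a ubiquitin-like modifier, was at 3.65 and 4.28 FPKM at 2.5 days, 5.37 and 3.91 at 5.5 days and 6.14 and 4.09 at 8.5 days in Cre- SOL and 5.48 and 3.76 FPKM at 2.5 days, 2.57 and 2.71 at 5.5 days and 19.6 and 5.72 at 8.5 days in Cre+ SOL. Its value of 19.6 FPKM in the Cre+ library of 8.5 days stood apart from the next highest of the 24, 6.14 FPKM in Cre- SOL at 8.5 days, replicate 1, whereas the control library of 5.5 days, replicate 1, was at 5.37 FPKM. In EDL Isg15 was at 3.79 and 3.06 FPKM at 2.5 days, 2.97 and 1.29 at 5.5 days and 4.57 and 3.43 at 8.5 days in Cre- mice and 4.28 and 1.77 FPKM at 2.5 days, 2.54 and 1.56 at 5.5 days and 5.69 and 4.62 at 8.5 days in Cre+ mice.

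**Figure D2:**
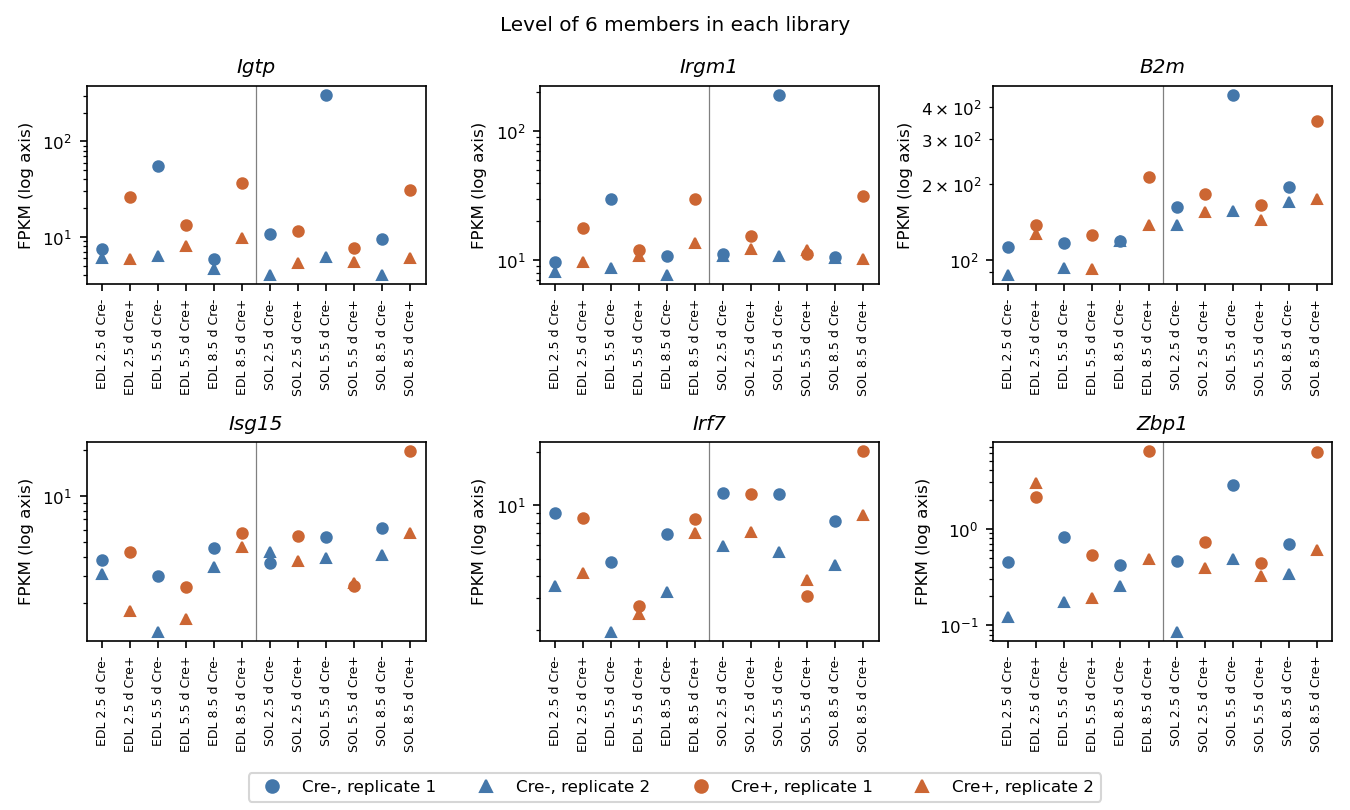
Level in FPKM (log axis) of 6 members in each library by group, with blue for Cre- and orange for Cre+, circles for replicate 1 and triangles for replicate 2, and EDL left of the vertical line. Igtp, Irgm1 and B2m were highest in the Cre- SOL library of 5.5 days, replicate 1, and Isg15 and Irf7 in the Cre+ SOL library of 8.5 days, replicate 1.

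The libraries of 1 group differed more in these genes than in most. The median absolute log2 difference between the replicates of the Cre- SOL group at 5.5 days was 1.30 over the members and 0.13 over the 15478 genes tested, and 19 of 35 members differed by more than 2-fold against 1.10% of genes. In the Cre+ SOL group at 8.5 days the corresponding values were 1.28 and 0.14, with 26 of 35 members over 2-fold against 1.79% of genes. In the other 10 groups the members' median was 0.20 to 0.78 and that of all genes 0.13 to 0.23. The members' median was above that of all genes in all 12 groups. Over the 6 Cre- SOL libraries the median standard deviation of log2(CPM + 0.5) was 0.55 for the members and 0.21 for all genes, and without replicate 1 of 5.5 days it was 0.20 and 0.21. In Cre- EDL it was 0.42 against 0.21, and 0.39 against 0.21 without the same number.

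**Figure D3:**
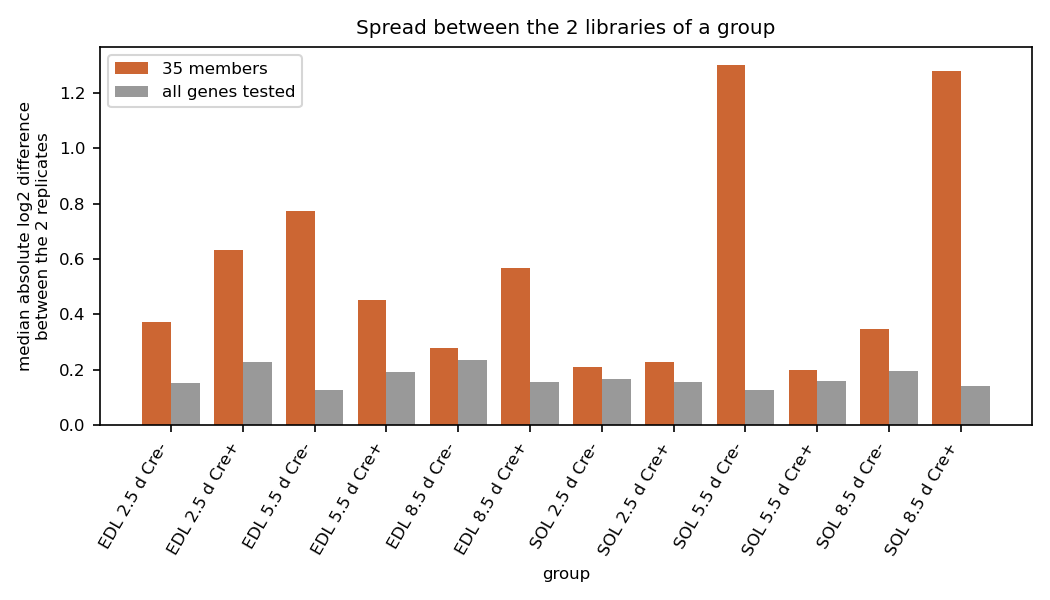
Median absolute log2 difference in CPM + 0.5 between the 2 libraries of each group, for the 35 members (orange) and for the 15478 genes tested (grey). The 2 tallest orange bars are Cre- SOL at 5.5 days (1.30) and Cre+ SOL at 8.5 days (1.28), beside grey bars of 0.13 and 0.14.

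The EDL libraries with the number of the high SOL libraries had medians of 0.11 (Cre- 5.5 days, replicate 1, with the GTPases at 1.23 and the effectors at 0.00388) and 0.61 (Cre+ 8.5 days, replicate 1). In the Cre- group of 5.5 days 29 of 35 members were higher in replicate 1 in both muscles and 1 was higher in replicate 2 in both. In the Cre+ group of 8.5 days 34 members were higher in replicate 1 in both muscles and 0 in replicate 2. In the groups without a high SOL library these counts were 29 against 1 in Cre+ at 2.5 days, 21 against 2 in Cre- at 2.5 and at 8.5 days, and 14 against 2 in Cre+ at 5.5 days. In this last group 33 of 35 members were higher in replicate 1 in EDL but 14 in SOL, where the median log2 ratio of the replicates was -0.06. The share of all genes higher in replicate 1 was 52.1% in EDL and 54.8% in SOL in Cre- at 5.5 days. It was 63.3% and 64.9% in Cre+ at 8.5 days, and 35.8 to 56.8% in the remaining groups. The share of all genes higher in replicate 1 in both muscles was not computed. Over all genes, the deviations of EDL and SOL libraries of the same number from their group means correlated at r = 0.174 to 0.442 across 15478 genes in the 6 groups, and a fit with this number as a block was run beside the unpaired test of the muscles. Genes are not independent replicates, and this r is a description.

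The pairs that hold the high libraries were compared by role. In the control SOL pair of 5.5 days the median log2 ratio of replicate 1 over replicate 2 was 3.77 for the GTPases, 2.50 for antigen presentation, 1.85 for signalling and transcription factors and 1.30 for ISG15 with ubiquitin and ADP-ribose enzymes. It was 0.59 for the sensors and 0.35 for the antiviral effectors, with single effectors from -0.39 to 2.15. In the Cre+ SOL pair of 8.5 days the same medians were 1.58, 1.32, 1.05 and 1.21, with 1.03 for the sensors and 1.33 for the effectors. The GTPases had the highest median of the 6 roles in all 4 pairs. They were at 1.74 and the effectors at 0.65 in the control EDL pair of 5.5 days, against 0.86 and 0.44 in the Cre+ EDL pair of 8.5 days. With 1 library on each side, these are descriptions of 4 pairs of libraries and carry no test.

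**Figure D4:**
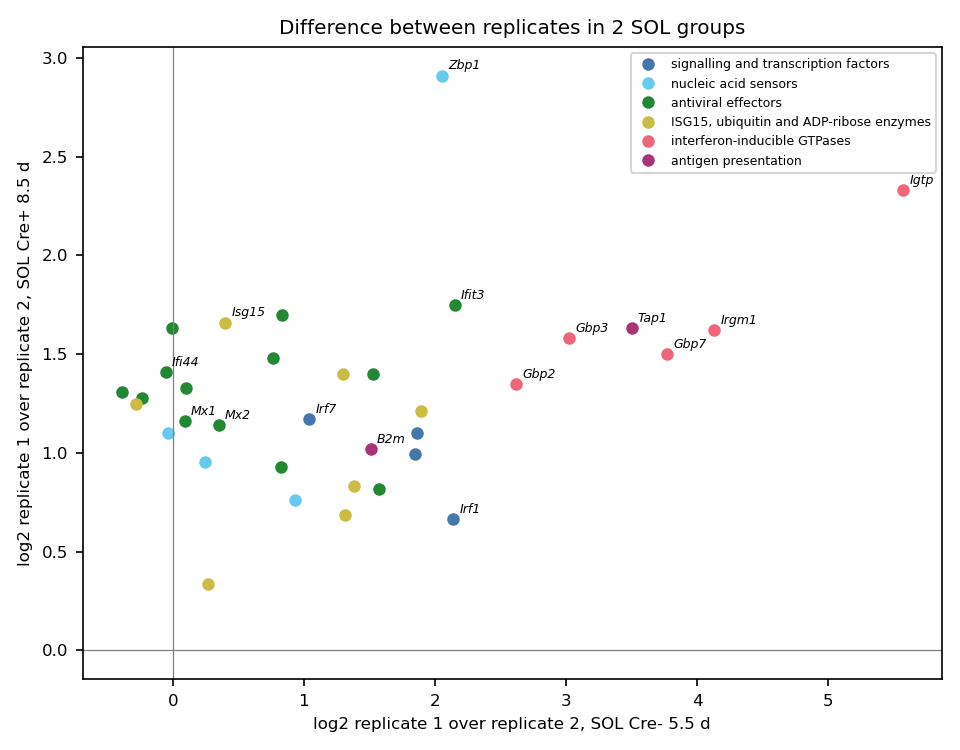
Each point is 1 of the 35 members, placed by its log2 ratio of replicate 1 over replicate 2 in Cre- SOL at 5.5 days (horizontal) and in Cre+ SOL at 8.5 days (vertical), coloured by role. All points lie above 0 on the vertical axis, and the GTPases, with Igtp at 5.57, and Tap1 lie farthest to the right.

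Markers of other cells were read in the same libraries. The T and NK cell list summed to 3.80 FPKM in the control SOL library of 5.5 days, replicate 1, against 0.989 FPKM in replicate 2, and all 13 of its 13 measured genes were higher in replicate 1. It summed to 3.71 FPKM in the Cre+ SOL library of 8.5 days, replicate 1, against 1.48 FPKM in replicate 2, with 12 of 13 genes higher. The other 22 libraries ranged from 0.313 to 2.36 FPKM, and none of the 13 genes, Cd2 and Gzma being the most abundant, was at 0 in both high libraries. Ifng, the transcript of interferon-γ, had 9 and 5 reads in these 2 libraries and 0 to 2 in each of the others, and the other 20 interferon genes listed had at most 3 reads in any library. The part of T and NK cells in the levels of the members was not tested. The macrophage and monocyte list was at 131.8 and 175.6 FPKM in the high libraries, against 99.05 and 184.9 FPKM in their replicates. In 9 and 4 of its 14 genes the high library was higher, and the other 22 libraries ranged from 78.3 to 232.9 FPKM. The neutrophil list was at 1.45 and 2.40 FPKM, against 0.35 and 2.48 FPKM, with Ly6g and Mpo at 0 in both high libraries. Its range in the other 22 was 0.35 to 23.02 FPKM. The dendritic cell list was at 2.68 and 5.14 FPKM, against 1.99 and 4.42 FPKM, inside the range of 1.95 to 6.03 FPKM. The endothelial list was at 149.8 and 252.9 FPKM, against 174.2 and 226.2 FPKM, the second above the 118.3 to 236.5 FPKM of the other 22. The part of these lists in the result was not tested.

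Whether OSKM in myofibers altered these genes was asked by comparing Cre+ with Cre- libraries per muscle and day, and a gene was called where its adjusted p was below 0.05 and its log2 fold change beyond 0.5 in either direction. The smallest p that 2 against 2 libraries can give in a permutation test is 0.333, so that calls rest on models fitted across all genes. The main one was edgeR's quasi-likelihood model, over the 8 groups of 2.5 and 8.5 days, or over all 12 groups where 5.5 days was compared. In EDL after 2.5 days 0 of 35 members were called, against 24% of the 15372 genes tested. At an unadjusted p under 0.05 there was 1 member, against 39.0% of genes, and DESeq2 called 0 on the same 16 libraries and 1, Zbp1, on the 4 libraries alone. The median log2 fold change was -0.24 for the members and -0.05 for all genes, with 10 members positive and 25 negative. In the same comparison the endothelial markers were negative in 9 of 9 genes, with a median of -0.54 and 5 called lower, and the fast fibre markers in 9 of 9, with a median of -0.90 and 5 called lower. The dendritic cell markers were positive in 6 of 7, with 1, Zbtb46, called higher. The neutrophil markers were negative in 5 of 5 (median -1.04) and the B cell markers in 3 of 3 (median -0.73), with 0 called. The T and NK cell markers were positive in 3 of 3 (median 0.84), also with 0 called. The part of these lists in the result was not tested. With the total count in place of TMM scaling the medians were 0.09 for the members and 0.28 for all genes. The members' median was -0.72 without Cre+ replicate 1, 0.15 without Cre+ replicate 2 and 0.07 without Cre- replicate 1, so that its direction rested on single libraries. Both Cre+ libraries exceeded both Cre- libraries in 5 members (51.9% of genes) and lay below them in 2 (15.4% of genes).

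Zbp1, a sensor of Z-form nucleic acids that triggers necroptosis, had the smallest p of the members in EDL at 2.5 and 8.5 days, and is described after its values were seen. Its EDL levels were 0.446 and 0.122 FPKM at 2.5 days, 0.823 and 0.175 at 5.5 days and 0.420 and 0.256 at 8.5 days in Cre- mice and 2.15 and 2.97 FPKM at 2.5 days, 0.531 and 0.190 at 5.5 days and 6.31 and 0.490 at 8.5 days in Cre+ mice. Both Cre+ libraries were above both Cre- libraries at 2.5 and at 8.5 days, and at 8.5 days replicate 1 was far above replicate 2. The log2 fold change was 2.84 ± 1.18 (SE), adjusted p = 0.0919, at 2.5 days and 3.12 ± 1.18 (SE), adjusted p = 0.0931, at 8.5 days, so that neither passed the threshold. At 2.5 days Zbp1 was called by edgeR on the 4 libraries (adjusted p = 0.0231) and with the replicate number as a block (adjusted p = 0.0319). At 8.5 days the fold change was 0.42 without Cre+ replicate 1, and 4.00 and called without Cre+ replicate 2 (adjusted p = 0.0338). In SOL Zbp1 was at 0.458 and 0.0862 FPKM at 2.5 days, 2.81 and 0.488 at 5.5 days and 0.686 and 0.340 at 8.5 days in Cre- mice and 0.720 and 0.394 FPKM at 2.5 days, 0.441 and 0.323 at 5.5 days and 6.17 and 0.600 at 8.5 days in Cre+ mice, highest in the 2 libraries in which the other members were high.

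In EDL after 8.5 days 0 of 35 members were called, against 14.1% of genes, and 3 had an unadjusted p under 0.05, against 29.8% of genes. DESeq2 called 0 on the 16 libraries and 1, Irgm1, on the 4 libraries. The 3 members were Zbp1, Irgm1 with a log2 fold change of 1.04 ± 0.45 (SE), adjusted p = 0.139, and Igtp with 1.93 ± 0.87 (SE), adjusted p = 0.16, in edgeR's quasi-likelihood test. The median was 0.28 over the members and -0.02 over all genes, with 31 positive and 4 negative. In the same comparison the macrophage and monocyte markers were positive in 13 of 14 genes (median 0.18) and the T and NK cell markers in 3 of 3 (median 0.19). The dendritic cell markers were positive in 6 of 7 (median 0.70, with Zbtb46 called higher). The fast fibre markers were negative in 7 of 9 (median -0.34, with Tnni2 and Tnnt3 called lower) and the slow fibre markers in 8 of 8 (median -0.425). The B cell markers were negative in 3 of 3 (median -0.95), with 2 at an unadjusted p under 0.05. The part of all these lists in the result was not tested. Without Cre+ replicate 1 the members' median was 0.06, with 21 positive, and Irgm1 was at 0.44. The members' median was 0.15, with 22 positive, without Cre- replicate 2, and 0.45 without Cre+ replicate 2. Cre+ libraries lay above Cre- libraries in 20 members (40.2% of genes) and below in 1, Mx2 (15.5% of genes).

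In SOL after 2.5 days 0 of 35 members were called, against 0.384% of genes. At an unadjusted p under 0.05 there were 0 members, against 13.3% of genes, and DESeq2 called 0 with either set of libraries. The median was 0.04 over the members and 0.02 over all genes. The members' median was -0.11 without Cre+ replicate 1 and 0.20 without Cre- replicate 1, so that its direction rested on single libraries. With the total count in place of TMM scaling the medians were 0.2 for the members and 0.18 for all genes. Stat2 had the smallest p, with a log2 fold change of 0.48 ± 0.34 (SE), adjusted p = 0.584, from edgeR. Cre+ libraries lay above Cre- libraries in 15 members (43.7% of genes) and below in 1, Rtp4 (10.5% of genes). In the same comparison the fibroblast markers were positive in 8 of 8 genes (median 0.34, with 4 at an unadjusted p under 0.05). Macrophage and monocyte markers were positive in 11 of 14 (0.265) and dendritic cell markers in 6 of 7 (0.44), each with 1 at that p. B cell markers were negative in 3 of 3 (-1.43) and fast fibre markers in 7 of 9 (-0.445), each with 2 at that p. Of these lists 0 genes were called, and their part in the result was not tested.

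In SOL after 8.5 days all 35 members had a positive log2 fold change, with a median of 0.93 against -0.01 over all genes, yet 0 were called in edgeR, against 0.631% of genes. At an unadjusted p under 0.05 there were 20 members, all higher, against 6.60% of genes. In the same comparison the dendritic cell markers were positive in 7 of 7 genes tested, with a median of 1.21 and 3 at an unadjusted p under 0.05, and the T and NK cell markers in 3 of 3, with a median of 0.82 and 0 at that p. The macrophage and monocyte markers were positive in 13 of 14 (median 0.225), the endothelial markers in 8 of 9 (median 0.13), and the neutrophil markers negative in 4 of 5, with a median of -0.86 and 2 at that p. Of these lists 0 genes were called, and their part in the result was not tested. DESeq2 called 2 members, Mx1 and Dhx58, on the 16 libraries and 0 on the 4 libraries. The values turned on single libraries. Without Cre+ replicate 1 the median was 0.13, with 26 members positive and 1 at an unadjusted p under 0.05, and without Cre+ replicate 2 it was 1.42, with 3 members called (Mx1, Dhx58 and Xaf1) and 32 at an unadjusted p under 0.05. Without Cre- replicate 2 the number at an unadjusted p under 0.05 was 3. Cre+ libraries lay above Cre- libraries in 14 members (21.3% of genes) and below in 0 (14.5% of genes).

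Mx1, a GTPase that blocks viral nucleocapsids, had the smallest p in SOL at 8.5 days and was singled out after its values were seen. It had 95 and 27 reads in the Cre+ libraries and 6 and 3 reads in the Cre- libraries, or 0.657 and 0.196 FPKM against 0.0564 and 0.0260 FPKM. Both Cre+ libraries were thus above both Cre- libraries at very low counts, and the Cre- libraries of other days had 6 to 20 reads in SOL. The log2 fold change was 3.30 ± 0.76 (SE), adjusted p = 0.101, in edgeR and 2.23 without Cre+ replicate 1. Dhx58 (LGP2), a regulator of RNA sensing, was at 2.79 and 1.19 FPKM in Cre+ and 0.849 and 0.572 FPKM in Cre- SOL. The groups did not overlap, and its log2 fold change was 1.43 ± 0.37 (SE), adjusted p = 0.181, and 0.74 without Cre+ replicate 1.

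After 5.5 days the members' median in SOL had the opposite sign to that after 8.5 days. Pou5f1 was low in 3 of the 4 Cre+ libraries of 5.5 days, and its part in this was not tested. In SOL 0 of 35 members were called, against 0.0% of genes, but the median log2 fold change was -1.06 against 0.01 over all genes, and 21 members had an unadjusted p under 0.05, all lower in Cre+, against 3.86% of genes. In the same comparison the T and NK cell markers were negative in 5 of 6 genes tested, with a median of -1.58. Of them 1, Cd8a, was at an unadjusted p under 0.05. Only 3 of the list passed the filter without 5.5 days. The list peaked in Cre- SOL replicate 1 of 5.5 days, so that the filter could partly set this direction. The fibroblast markers were positive in 7 of 8 (median 0.39) and the endothelial in 8 of 9 (0.13). The dendritic cell markers were positive in 6 of 7 (0.37) and the neutrophil in 4 of 5 (0.59). The macrophage and monocyte markers were negative in 8 of 14 (-0.11). Of these further lists 0 genes were at that p, and the part of these lists was not tested. DESeq2 called 0 on the 24 libraries and 2, Ifit1 and Irf7, both lower, on the 4 libraries. Irgm1 had a log2 fold change of -3.17 ± 0.86 (SE), adjusted p = 1, and Gbp7 of -2.71 ± 0.80 (SE), adjusted p = 1, in edgeR's quasi-likelihood test. These values came with the high control library. Leaving out a Cre+ library gave a median of -1.12 (replicate 1) or -1.34 (replicate 2), with fewer members at an unadjusted p under 0.05. Without Cre- replicate 1 the median was -0.25, 1 member was left at an unadjusted p under 0.05, and the fold changes of Irgm1 and Gbp7 were 0.03 and 0.21. Without Cre- replicate 2, 2 members, Irgm1 and Gbp7, were called. Cre+ libraries lay below Cre- libraries in 18 members (10.9% of genes) and above in 1, Ifi44 (26.5% of genes).

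In EDL after 5.5 days 0 of 35 members were called, against 0.304% of genes. At an unadjusted p under 0.05 there were 0 members, against 8.44% of genes, and DESeq2 called 0 with either set of libraries. The median was -0.29 against -0.01 over all genes, and 0.25 without Cre- replicate 1. In the same comparison the macrophage and monocyte markers were positive in 14 of 14 genes (median 0.29), the fibroblast markers in 8 of 8 (median 0.52, with 4 at an unadjusted p under 0.05) and the erythroid markers in 6 of 6 (median 1.21, with 4 at that p), and their part in the result was not tested. Mx2 had the smallest p, with a log2 fold change of -0.69 ± 0.44 (SE), adjusted p = 0.755, in edgeR. Cre+ libraries lay above Cre- libraries in 1 member, Trim25 (34.8% of genes), and below in 1, Mx2 (8.0% of genes).

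**Figure D5:**
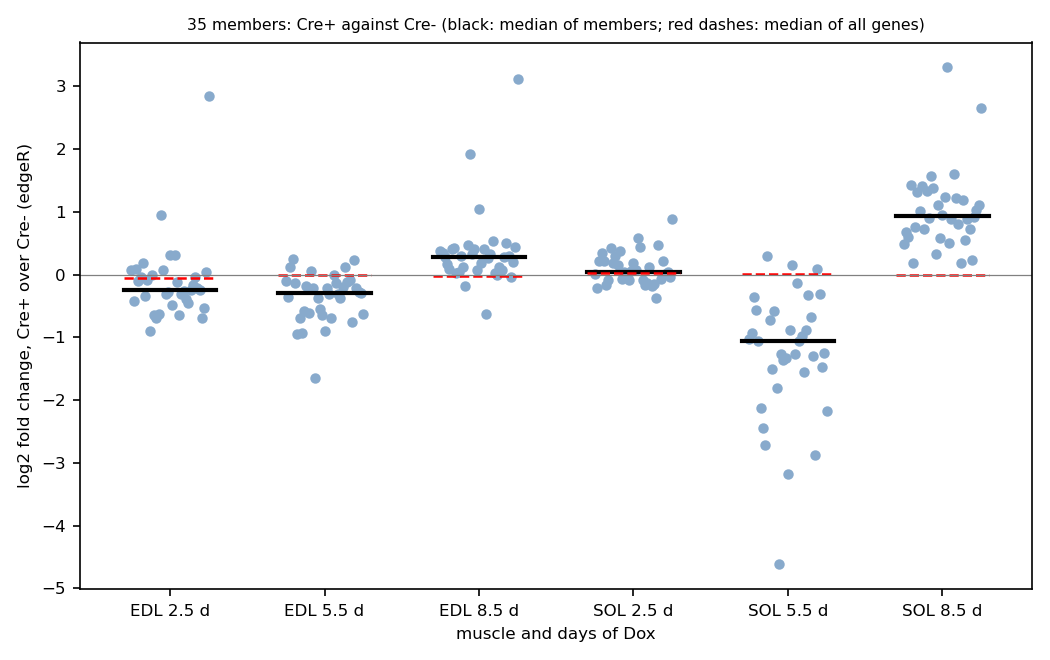
Log2 fold change of Cre+ over Cre- from edgeR for the 35 members (points) in each muscle and at each day of Dox, with the median of the members as a black bar and the median of all genes tested as a red dashed bar. The members' median was 0.93 in SOL at 8.5 days and -1.06 in SOL at 5.5 days, and between -0.29 and 0.28 in the others.

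Differences between effects were tested as interaction terms. The Cre+ change differed between EDL and SOL in 0 of 35 members after 2.5 days (4.25% of genes called) and in 0 after 8.5 days (0.592% of genes). At an unadjusted p under 0.05 these were 0 members (21.0% of genes) and 2 members, Mx1 and Dhx58 (11.2% of genes), and DESeq2 called 0 on both days. After 8.5 days 30 of 35 differences were negative, with a median of -0.66. This median was 0.05 without SOL Cre+ replicate 1 and -1.15 without SOL Cre+ replicate 2. With the number shared by the muscles as a block, 0 members were called after 2.5 days (6.63% of genes) and 0 after 8.5 days (1.14%), and at an unadjusted p under 0.05 there were 5 members (24.6% of genes) and 8 members (14.1%). Mx1 differed by -2.90 ± 1.02 (SE), adjusted p = 0.296, with the change lower in EDL. The change in EDL differed between 8.5 and 2.5 days in 0 members (0.0% of genes), with 0 at an unadjusted p under 0.05 (9.56% of genes) and 0 called by DESeq2. In that comparison 34 of 35 differences were positive, with a median of 0.44, and the days also differed in sex. The endothelial markers were positive in 9 of 9 genes (median 0.505, with 2 at an unadjusted p under 0.05), the fast fibre markers in 9 of 9 (median 0.48), the macrophage and monocyte markers in 12 of 14 (median 0.47) and the fibroblast markers in 7 of 8 (median 0.40), the slow fibre markers were negative in 7 of 8 (median -0.62), and their part in the result was not tested. The members' median was 0.13, with 24 positive, without Cre+ replicate 1 of 8.5 days, and with other libraries left out in turn it lay between 0.22 and 1.02, the highest without Cre+ replicate 1 of 2.5 days.

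EDL and SOL of Cre- mice differed in 3 members, all lower in EDL, over 2.5 and 8.5 days, against 21.9% of genes called and 11.1% called lower. In the same comparison the fast fibre markers were called higher in EDL in 9 of 9 genes and the slow fibre markers lower in 8 of 8. The endothelial markers were negative in 8 of 9 (median -0.33, with Emcn called lower), and Cd79b of the B cell list was called lower. The fibroblast list had 3 of 8 genes called higher, the erythroid list 3 of 6, and the macrophage and monocyte list 1, Mrc1. The part of these lists in the result was not tested. At an unadjusted p under 0.05 there were 4 members, against 41.7% of genes, and DESeq2 called 4. Parp9 was lower in EDL, at -0.57 ± 0.16 (SE), adjusted p = 0.017, in edgeR's quasi-likelihood test, with mean levels of 3.47 and 5.50 FPKM in EDL and SOL. Dtx3l, its partner ligase, was at -0.57 ± 0.17 (SE), adjusted p = 0.0196, with 2.04 and 3.24 FPKM. The 2 rows overlap head to head on opposite strands, so that reads in the shared part cannot be told apart without strand. Rtp4, a transporter protein with antiviral action, was at -0.74 ± 0.22 (SE), adjusted p = 0.0218, with 2.65 and 4.68 FPKM. Among the 8 Cre- libraries of these days every EDL value of Parp9, Dtx3l and Rtp4 was below every SOL value. B2m missed the threshold at -0.51 ± 0.19 (SE), adjusted p = 0.0539, and was called with the number shared by the muscles as a block (adjusted p = 0.0029). The number of members called was 1, Rtp4, with all 24 libraries in the fit, and 1 without EDL replicate 1 of 2.5 days or without EDL replicate 2 of 8.5 days.

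Among Cre- mice, days of Dox were compared with a test over the 3 days. By Xist and Ddx3y the 2.5-day libraries also differed in sex from the others, so that day and sex cannot be told apart there. In EDL 0 members were called, against 6.86% of genes, with 1, Trim25, at an unadjusted p under 0.05 (25.6% of genes) and 1, Trim25, called by DESeq2. In SOL 4 of 35 members were called, a share close to the 11.4% of all genes. At an unadjusted p under 0.05 there were 15 members, against 30.7% of genes. The 4 called by edgeR were Irgm1 (largest difference between days 3.39 on the log2 scale, adjusted p = 0.0126), Igtp (4.62, adjusted p = 0.0243), Gbp7 (2.89, adjusted p = 0.0276) and Tap1 (2.77, adjusted p = 0.0400). The markers called between these days were 4 of 8 fibroblast genes, S100a8 and S100a9 of the neutrophil list, Kdr and Cldn5 of the endothelial list, Mrc1 of the macrophage and monocyte list and Mylpf of the fast fibre list, and their part in the result was not tested. DESeq2 called 7 members. The calls rested on the high control library, and 0 members were called without replicate 1 of 5.5 days, whereas 15 were called without replicate 2. The number was 1 without replicate 2 of 2.5 days and without either replicate of 8.5 days, and 1, Tap1, with the replicate number as a block.

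The pathway around the members was read from 4 further lists, of which the 21 interferon genes were too low to test. Of the 36 others (receptors and kinases, sensing and induction, negative regulators), 4 were called higher and 2 lower in EDL after 2.5 days (13.8% of genes higher and 10.2% lower), and 5 higher and 1 lower after 8.5 days (7.63% and 6.50%). In EDL after 5.5 days 1 was called (0.304% of genes), Socs3, a feedback inhibitor of cytokine signalling, at 1.32 ± 0.25 (SE), adjusted p = 0.0386, in edgeR. In SOL 0 were called at 2.5 days (0.384% of genes), 5.5 days (0.0%) and 8.5 days (0.631%). Ifnar2, a chain of the type I interferon receptor, was at 2.87 and 3.16 FPKM at 2.5 days, 1.81 and 1.76 at 5.5 days and 2.93 and 3.21 at 8.5 days in Cre- EDL and 12.9 and 16.4 FPKM at 2.5 days, 2.69 and 3.77 at 5.5 days and 10.2 and 9.47 at 8.5 days in Cre+ EDL. At 2.5 and 8.5 days both Cre+ libraries were above all Cre- EDL libraries. Its log2 fold change was 1.95 ± 0.16 (SE), adjusted p = 1.04e-05, at 2.5 days and 1.5 ± 0.16 (SE), adjusted p = 6.42e-05, at 8.5 days, in edgeR. Tyk2, a kinase bound to that receptor, was at 8.15 and 6.94 FPKM in Cre+ EDL and 3.79 and 4.17 in Cre- EDL after 8.5 days, with a log2 fold change of 0.74 ± 0.14 (SE), adjusted p = 0.0036. Jak2, the kinase of the interferon-γ receptor, was lower in Cre+ EDL, at -1.38 ± 0.24 (SE), adjusted p = 0.00106, at 2.5 days and -0.91 ± 0.23 (SE), adjusted p = 0.0197, at 8.5 days. Trex1, a DNase that limits DNA sensing, was higher by 1.16 ± 0.15 (SE), adjusted p = 0.00038, at 8.5 days. Irf5, a factor of interferon induction, was lower, at -1.29 ± 0.42 (SE), adjusted p = 0.038, at 2.5 days. The other calls were Tyk2, Trex1 and Il10rb, higher at 2.5 days, and Jak1 and Myd88, higher at 8.5 days.

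Of 69 other interferon-stimulated genes, 5 were called higher and 1 lower in EDL after 2.5 days, and 5 higher and 0 lower after 8.5 days, with 0 called in SOL on these days. Over all genes the shares in EDL were 13.8% higher and 10.2% lower, and 7.63% and 6.50%, so that these counts were not above the background. The EDL counts also moved when 1 library was left out. The median of the 69 in EDL after 2.5 days was -0.16, and it was -0.64 without Cre+ replicate 1 and 0.19 without Cre+ replicate 2. After 8.5 days it was 0.25, and 0.005 without Cre+ replicate 1. In SOL after 8.5 days 67 of the 69 were positive, with a median of 0.56 and 16 at an unadjusted p under 0.05, all higher (6.60% of genes). Without Cre+ replicate 1 the median was 0.04, with 36 positive and 0 at that p, and without Cre- replicate 2 there were 4 at that p, against 47 without Cre+ replicate 2. After 5.5 days 65 were negative in SOL, with a median of -0.58, 0 called (0.0% of genes) and 27 at an unadjusted p under 0.05, all lower (3.86% of genes). Without Cre- replicate 1 that median was -0.09, with 48 negative and 1 at that p, and the number at that p was 16 when either Cre+ library alone was left out. The values of the 69 genes without a library were added after the data were seen. In EDL Ube2l6, the conjugating enzyme for ISG15, was at 1.06 ± 0.24 (SE), adjusted p = 0.00579, after 2.5 days and 1.03 ± 0.24 (SE), adjusted p = 0.0125, after 8.5 days, by edgeR. Lgals9, a galectin, was at 1.41 ± 0.30 (SE), adjusted p = 0.00404, and Parp10, an ADP-ribosyltransferase, at -1.09 ± 0.26 (SE), adjusted p = 0.00779, after 2.5 days. Ifi27, a mitochondrial interferon-induced protein, was at 0.73 ± 0.19 (SE), adjusted p = 0.0215, after 8.5 days. Between days in Cre- SOL, 10 of the 69 were called, against 11.4% of all genes. Among them were Irgm2 and Iigp1, immunity-related GTPases that were at 162 and 5.04 FPKM (Irgm2) and 221 and 3.66 FPKM (Iigp1) in replicates 1 and 2 of 5.5 days. The number called fell without replicate 1 of 5.5 days and rose without replicate 2.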

How the data were processed

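Per the labels and the methods, polyA RNA of whole EDL and SOL was made into stranded TruSeq libraries and sequenced from 1 end. The authors aligned reads to mm10 with STAR (version 2.5.3a) and deposited raw counts of uniquely aligned reads in RefSeq exons, made with HOMER. Whether counting used strand is not given in the sources used here. FPKM was computed from the counts, the row's exon length and the library total, and library medians from log2(CPM + 0.5).

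The 35 members, their roles and all gene lists were chosen with earlier results of these data known. The main test was edgeR (version 4.0.16, R 4.3.3) with TMM scaling, filterByExpr at a minimum count of 10, 1 mean per group and the quasi-likelihood F test, with Benjamini-Hochberg adjustment over all genes. The 16 libraries of 2.5 and 8.5 days (15372 genes, 8 residual degrees of freedom) served the comparisons of these days, and all 24 (15478 genes, 12) those with 5.5 days. Calls needed an adjusted p below 0.05 and a log2 fold change beyond 0.5 in either direction. P-values measure the spread between 2 samples a group. The script was tested on simulated data. Alternatives were DESeq2 (version 1.42.0), other scalings and filters, the replicate number as a block, and fits with 1 library omitted. Motif intervals are exact binomial, at 95%. Depth (36088781 to 54679082 counts) puts 3 counts at under 0.1 CPM in each library, and this covers counting error only.

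The main tests use no pairing. A block by the replicate number shared by EDL and SOL was an alternative for tests between the muscles, since deviations from group means correlated in all 6 groups of genotype and day (r = 0.174 to 0.442). The labels do not state the pairing. Levels in every library are given for the 2 most abundant members of each role, for members the main test called between genotypes (there were 0), and for the 3 with the largest replicate difference in a Cre- group. Other members described in full were chosen after their values were seen.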

Additional observations from a re-analysis of the deposited data

Results flagged for a closer look

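The change of Ifnar2, a chain of the type I interferon receptor, differed between the muscles by an interaction test in edgeR. After 2.5 days the log2 fold change of Cre+ over Cre- was higher in EDL by 1.45 (SE 0.22, adjusted p = 0.00479), and after 8.5 days by 1.15 (SE 0.22, adjusted p = 0.038). Both Cre+ libraries were above both Cre- libraries of EDL on these days. Tyk2, a kinase of the same receptor, differed in the same direction after 2.5 days by 0.89 (SE 0.19, adjusted p = 0.0254). None of the 35 interferon-stimulated members differed in this way in edgeR on either day.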

How the results depend on the processing

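With 2 libraries a group, single libraries moved many values, and the cause of these differences was not tested. The added alternatives (the crossed replicate block and leaving out 1 number in both muscles) were chosen after seeing the data. In EDL after 2.5 days 1 member, Zbp1, was called with the replicate block, the crossed replicate block, and DESeq2 or edgeR on the 4 libraries. In EDL after 8.5 days DESeq2 on the 4 libraries called 1, and leaving out 1 library gave 0 to 1. In SOL after 8.5 days 1 was called among all genes with any count, 1 with the crossed block and 2 with DESeq2 on the 16 libraries, and leaving out 1 library gave 0 to 3. In SOL after 5.5 days DESeq2 on the 4 libraries called 2, and leaving out 1 library gave 0 to 2. There the fold changes of Gbp7 and Irgm1 turned from negative to 0.214 and 0.0328 without Cre- replicate 1 of 5.5 days, in SOL alone or in both muscles, and were -3.61 and -4.09 without Cre- replicate 2.

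Between EDL and SOL of Cre- mice 0 members were called at an absolute log2 fold change over 1, 1 with all 24 libraries and 1 to 3 without 1 library. Between days in Cre- EDL the number was 1 with library size alone and 1 with DESeq2. Between days in Cre- SOL it was 7 with any count, 7 with DESeq2, 1 with the replicate block, 2 with the crossed block, 0 without Cre- replicate 1 of 5.5 days in both muscles, and 0 to 15 without 1 library. The response element core was in 92.3% of members with 1 mismatch, and in 38.9% of all genes. Other settings left 179 of 207 counts of members called within 1.5 times, and 94 of 96 library medians within their replicate spread. The main count was 0 in most comparisons, so that the first of these shares says little about stability. Of the fold changes of named genes under these settings, 574 kept their direction and side of the threshold, 151 lost the threshold, 14 gained it and 4 reversed.

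Cre+ and Cre- libraries shared only a number, with r between -0.171 and 0.058, so that the replicate block rests on no stated pairing. Over all genes tested, the EDL median after 2.5 days was -0.05, and 0.28 with library size alone. Mx1 and other members at a few reads are limited by depth.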
